A study of Mus musculus with 15 samples.

Results

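Most genes described here restrain mTORC1, the growth-promoting kinase complex, or report nutrient supply to it: Ddit4, Tsc1, Tsc2, Deptor, Sesn1, Sesn2, Castor2 and Rragd. Eif4ebp1 is counted with them, and its protein is a target of mTORC1 that blocks translation until mTORC1 phosphorylates it. These 9 genes were picked by function, with earlier results of these data known, from the 22180 genes that the arrays measured. Each was read from a probe set whose annotation names that 1 gene. The probe sets were 17241032 for Ddit4 (chromosome 10), 17368714 for Tsc1 (2), 17341917 for Tsc2 (17), 17311533 for Deptor (15) and 17500327 for Eif4ebp1 (8). They were 17232912 for Sesn1 (10), 17430861 for Sesn2 (4), 17443069 for Castor2 (5) and 17412539 for Rragd (4), and only Deptor had a second. RNA came from melan-Ink4a-Arf-1, 1 immortal mouse melanocyte line of the strain Cdkn2a tm1RDp/tm1RDp, so every group, controls included, carries this mutant allele pair of the Cdkn2a tumour suppressor locus. All cells were kept at 37 °C with 10% serum, 200 nM of a phorbol ester and 200 pM cholera toxin, and each of 5 groups has 3 Affymetrix arrays, which the series calls biological triplicates. Si1 and Si6 cells received an siRNA against Hif1a, a different one in each group, 24 h before 24 h of hypoxia at 1% oxygen, 5% CO2 and 94% nitrogen. The negative control and the hypoxia control had the same hypoxia, and the labels say nothing more of what either received. Normoxic cells had about 21% oxygen with 10% CO2, so the effects of oxygen and of CO2 cannot be told apart. The questions were how these genes respond to hypoxia and what changes when Hif1a is silenced under hypoxia.

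mTORC1 sits on the lysosome and promotes protein synthesis when growth factors, energy, oxygen and amino acids are sufficient. The small GTPase Rheb switches it on, and the TSC complex, built on the TSC1 and TSC2 proteins, switches Rheb off. Amino acids act through the Rag GTPases, which bring mTORC1 to the lysosome, and the sestrin and CASTOR proteins restrain that step through the GATOR complexes when amino acids are scarce. In melanocytes the pigment-cell transcription factor MITF, a relative of the lysosomal regulators TFEB and TFE3, is known to act on Rragd. HIF-1, whose oxygen-regulated subunit Hif1a encodes, is known to act on Ddit4, and the stress factor ATF4 on Sesn2, Ddit4 and Eif4ebp1.

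On the log2 scale of the deposited values, array medians lay between 6.52 and 6.61. Pairs of arrays correlated at 0.993 to 0.996 within groups and at 0.978 to 0.993 between groups, and no array stood apart. Hif1a, the targeted gene, averaged 8.65 ± 0.09 in Si1 cells, 8.93 ± 0.04 in Si6 cells and 10.63 ± 0.06 in negative control cells (log2 level, SD, n = 3 each). The 8 melanocyte markers averaged between 10.8 and 11.9 on each array, and the fibroblast, keratinocyte, immune and endothelial lists (all listed genes measured, except 3 of 4 for keratinocytes) averaged between 5.92 and 6.84. The brightest genes of those other lists were Col1a1 and Cd68, each with a mean of 8.56. Lum (4.35) and Ptprc (4.5) were the dimmest. The dimmest melanocyte marker, Kit, had a mean of 8.46, below Col1a1 and Cd68. The melanocyte average moved with the groups, at 10.82 to 10.86 in Si1 cells, 11.39 to 11.48 in Si6 cells, 11.08 to 11.17 in negative control cells, 11.65 to 11.69 in hypoxia control cells and 11.83 to 11.89 in normoxic cells. The immune average was 6.75 to 6.84 in Si1 cells, against 6.33 to 6.40 in negative control cells, and 6.32 to 6.47 in hypoxia control cells, against 6.10 to 6.31 in normoxic cells. The fibroblast average was 6.11 to 6.16 in hypoxia control cells, against 6.32 to 6.44 in normoxic cells. The part of these marker shifts in the results below was not tested. In RNA from whole cultures, fewer cells expressing a gene and less RNA per cell cannot be told apart.

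Promoters are shown for the members that passed the hypoxia test and both siRNA tests and have an entry in the RefSeq promoter table (GRCm38.p6), 3 of 5 such members, to show the sequence beside genes that all 3 tests called. Some of these calls rest on single arrays, as given below for Ddit4 with Si1 and for Sesn2 in hypoxia. Each line gives the 250 bases before the annotated start, 5′ to 3′ on the gene's own strand, with matches to the HIF core motifs ACGTG or GCGTG, found on either strand, in capitals.
Ddit4, chr10:59951771-59952020, minus strand: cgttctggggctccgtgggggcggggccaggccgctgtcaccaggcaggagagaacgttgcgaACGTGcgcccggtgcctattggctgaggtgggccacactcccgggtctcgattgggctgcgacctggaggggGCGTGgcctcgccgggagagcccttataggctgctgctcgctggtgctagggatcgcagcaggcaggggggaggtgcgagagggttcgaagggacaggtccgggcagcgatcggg
Castor2, chr5:134099498-134099747, plus strand: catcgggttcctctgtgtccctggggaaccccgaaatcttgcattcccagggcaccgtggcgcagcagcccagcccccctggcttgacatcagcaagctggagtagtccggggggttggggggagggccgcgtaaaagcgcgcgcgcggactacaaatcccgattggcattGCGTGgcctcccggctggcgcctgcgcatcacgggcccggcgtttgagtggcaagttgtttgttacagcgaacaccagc
Sesn2, chr4:132510457-132510706, minus strand: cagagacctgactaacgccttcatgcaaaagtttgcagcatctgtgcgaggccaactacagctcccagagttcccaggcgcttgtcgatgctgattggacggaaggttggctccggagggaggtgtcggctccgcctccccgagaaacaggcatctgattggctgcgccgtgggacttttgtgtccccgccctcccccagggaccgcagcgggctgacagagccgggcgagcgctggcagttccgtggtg
Ddit4 has ACGTG 187 bases and GCGTG 115 bases before the start, Castor2 has GCGTG 79 bases before it, and the Sesn2 window has neither. Such short motifs are common: over 32851 promoter windows of the same length, 16.6% hold ACGTG, 28.2% GCGTG and 38.6% at least 1 of them. The windows were also searched on both strands for TGATGNAA, a composite site of the ATF4 type that 3.45% of promoters hold, and for TCACGTGA, a site of the MITF and TFE type that contains ACGTG and that 0.785% hold. None of the 3 windows matched either. Of the other members in the table, GCGTG occurs in the windows of Tsc1, Tsc2 and the second of 2 Sesn1 starts, and Rragd has no match to any of the 4 motifs.

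**Figure D1:**
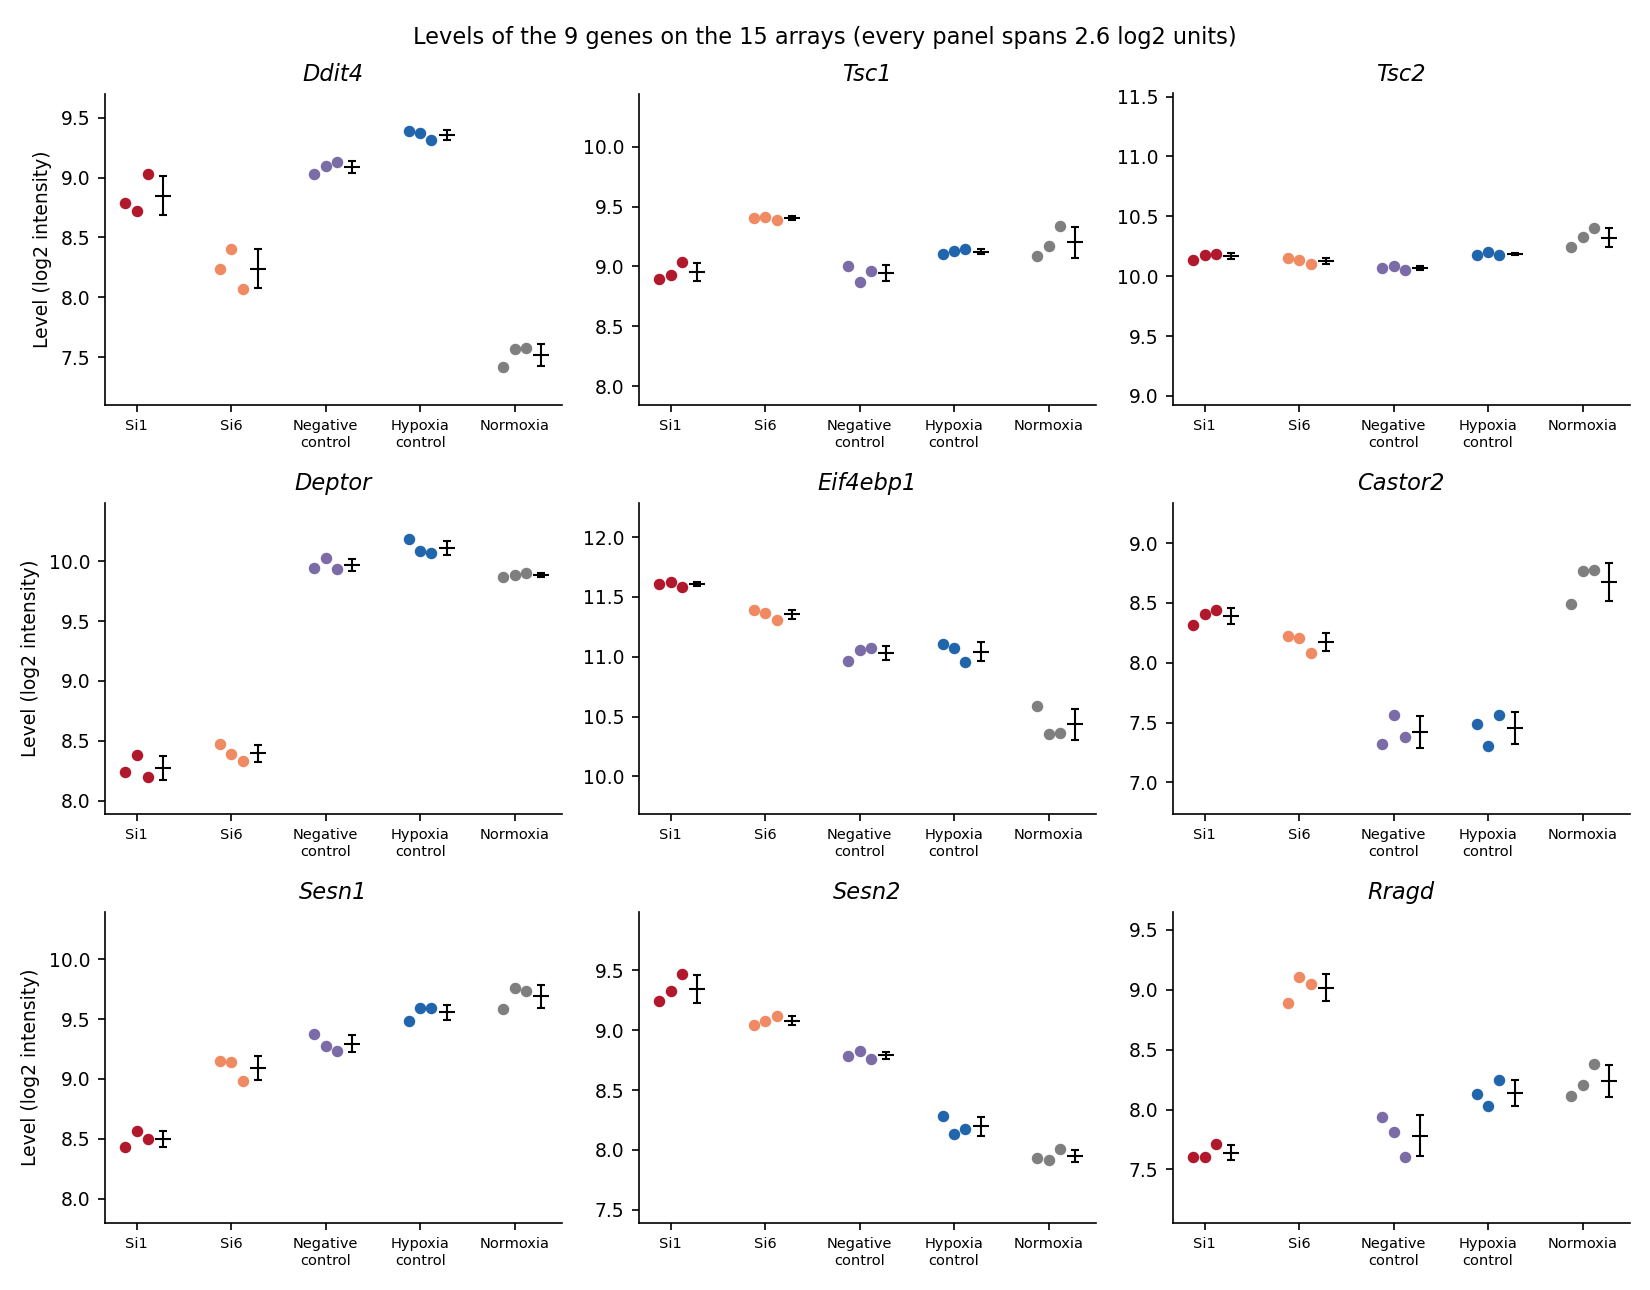
Log2 level of each of the 9 genes on every array (points), with the group mean and SD (black bars), for Si1, Si6, negative control, hypoxia control and normoxia from left to right, 3 arrays each. Ddit4 is lowest in normoxia, Deptor is low in both siRNA groups, Castor2 is low in the negative and hypoxia controls, and Rragd is highest in Si6.

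The 9 genes differed widely in how far they moved. The span between the highest and lowest group mean was 1.84 for Ddit4, 1.84 for Deptor, 1.39 for Sesn2, 1.38 for Rragd, 1.25 for Castor2, 1.19 for Sesn1 and 1.17 for Eif4ebp1 on the log2 scale. Each of these 7 spans exceeded those of at least 95.5% of all genes, whose median span was 0.28. Tsc1 spanned 0.46, and Tsc2, at 0.25, spanned less than the median gene. The 9 genes were chosen with earlier results of these data known, so these ranks and the counts below only describe them.

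In hypoxia alone, 5 of the 9 genes passed the test (limma, Benjamini-Hochberg adjusted p under 0.05 over all genes), 4 higher and 1 lower in the hypoxia control than in normoxia. Over all genes 21.0% passed, with 9.87% higher and 11.2% lower. Ddit4 and Eif4ebp1 rose most, Castor2 fell, and Sesn2 and Deptor rose slightly. The median change of the 9 was -0.08, against -0.0016 over all genes, and the median size of change was 0.23, against 0.098. The p-values measure the spread between cultures of 1 line, 3 per group, estimated over all 15 arrays in 1 fit and moderated across genes (eBayes). The number of arrays limits the precision: the median standard error of a log2 difference was 0.076.

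Among the brakes upstream of Rheb, Ddit4 (also REDD1), which promotes TSC activity under stress, had the clearest hypoxia response. Its log2 levels were 9.39, 9.37 and 9.31 on hypoxia control arrays, against 7.42, 7.57 and 7.57 on normoxia arrays. The groups lie far apart, and the difference of 1.84 ± 0.09 (SE) is a 3.58-fold rise (adjusted p = 7.6e-10). It was lower with each siRNA, to differing extents. Levels were 8.79, 8.72 and 9.03 in Si1 cells and 8.24, 8.40 and 8.07 in Si6 cells, against 9.03, 9.10 and 9.13 in negative control cells. Every Si6 array was below every negative control array, while the highest Si1 array and the lowest negative control array both stood at 9.03. Ddit4 fell to 55.5% of the negative control level in Si6 cells (log2 -0.85 ± 0.09, adjusted p = 2.1e-06) and to 84.8% in Si1 cells (-0.24 ± 0.09, adjusted p = 0.045). The Si1 call rests on a narrow margin: it was lost in 11 of 15 fits with 1 array left out (each negative control and each hypoxia control array, Si1 a and b, Si6 a, normoxia b and c) and under 3 of 7 other settings, up to an adjusted p of 0.18. With either siRNA Ddit4 remained above normoxia, by 1.33 ± 0.09 in Si1 cells (adjusted p = 5.4e-09) and 0.72 ± 0.09 in Si6 cells (adjusted p = 9.2e-06). Its paralogue Ddit4l, another inhibitor of mTORC1 signalling, differed by -0.01 ± 0.12 between hypoxia control and normoxia (adjusted p = 0.96). Ddit4l in the negative control, however, exceeded the hypoxia control by 0.52 ± 0.12 (adjusted p = 0.0057) and normoxia by 0.51 ± 0.12 (adjusted p = 0.0032). Against the negative control it rose in Si1 cells (0.57 ± 0.12, adjusted p = 0.0011) and differed by -0.11 ± 0.12 in Si6 cells (adjusted p = 0.57).

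Tsc1 and Tsc2, the scaffold and the Rheb-directed GTPase-activating subunit of the TSC complex, did not pass the hypoxia test. Tsc1 differed by -0.08 between hypoxia control and normoxia (95% interval -0.21 to 0.06, adjusted p = 0.49) and Tsc2 by -0.14 (-0.24 to -0.03, adjusted p = 0.057). Tsc1 was 9.41, 9.42 and 9.39 in Si6 cells, against 9.0, 8.87 and 8.96 in negative control cells. These groups do not overlap, and Tsc1 rose by 0.46 ± 0.06 in Si6 cells (1.37-fold, adjusted p = 4.4e-05). In Si1 cells it was 8.89, 8.93 and 9.04, which lies within and just beyond the negative control range, with a difference of 0.01 (interval -0.13 to 0.14, adjusted p = 0.95). Tsc2 was the steadiest member, between 10.05 and 10.40 on all 15 arrays, with normoxia highest. It passed neither siRNA test, at 0.10 in Si1 cells (interval -0.01 to 0.20, adjusted p = 0.15) and 0.06 in Si6 cells (-0.04 to 0.16, adjusted p = 0.43), both against the negative control. Tbc1d7, which encodes the third subunit of the complex, behaved otherwise: it fell by 0.65 ± 0.12 in hypoxia (adjusted p = 0.00083) and rose by 0.64 ± 0.12 in Si1 cells (adjusted p = 0.00046) and 1.01 ± 0.12 in Si6 cells (adjusted p = 8.5e-06).

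Deptor, which encodes a protein that binds mTOR and inhibits it within its complexes, had the largest siRNA response of the 9. Its log2 levels were 8.24, 8.39 and 8.20 in Si1 cells and 8.47, 8.39 and 8.33 in Si6 cells, against 9.95, 10.03 and 9.94 in negative control cells. The siRNA groups overlap each other and lie well below all 9 other arrays. Deptor fell to 30.9% of the negative control in Si1 cells (log2 -1.70 ± 0.06, adjusted p = 1.3e-11) and to 33.6% in Si6 cells (-1.57 ± 0.06, adjusted p = 6.6e-11). The hypoxia difference was small: the hypoxia control had 10.18, 10.08 and 10.07, against 9.87, 9.88 and 9.90 in normoxia, a rise of 0.23 ± 0.06 (adjusted p = 0.012) that was lost without hypoxia control array a (adjusted p = 0.063). The negative control differed from normoxia by 0.08 (interval -0.04 to 0.21, adjusted p = 0.34). Deptor in siRNA-treated hypoxic cells was thus below its level in normoxic cells, by 1.61 in Si1 cells and 1.49 in Si6 cells on the log2 scale (adjusted p = 1.1e-11 and 1.5e-10).

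The second, dimmer Deptor probe set followed the first. It fell by 1.99 ± 0.09 in Si1 cells and 1.86 ± 0.09 in Si6 cells, both against the negative control (adjusted p = 1.5e-10 and 6.9e-10). In hypoxia it rose by 0.39 ± 0.09 (adjusted p = 0.0043), and here the negative control also exceeded normoxia, by 0.28 ± 0.09 (adjusted p = 0.027). Of 16634 genes in the upper 75% by mean level, the one whose pattern over the 15 arrays was most like that of Deptor was Hif1a itself (Pearson r = 0.993), followed by Mylip (0.987) and Txnip (0.987). These arrays fall into separate groups, so the correlation mostly describes the low level of both genes in the siRNA groups.

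**Figure D2:**
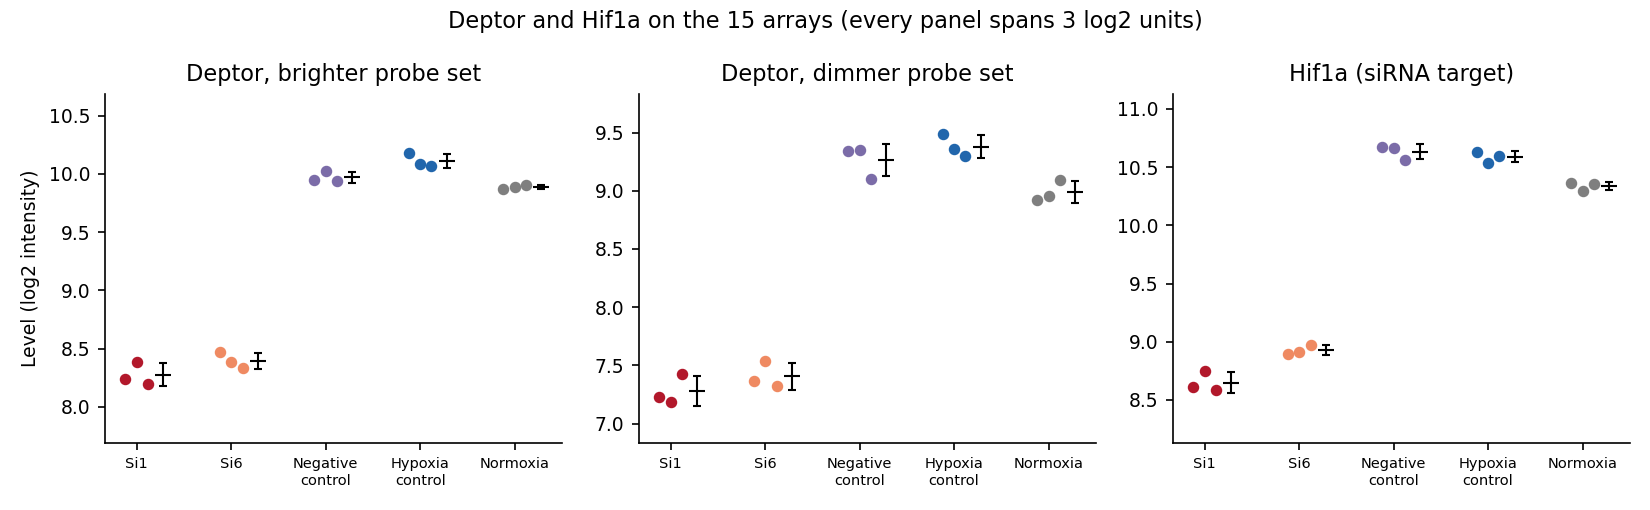
Log2 level (vertical axis) of the brighter Deptor probe set, the dimmer Deptor probe set and Hif1a, 1 panel each, on every array (points) of the 5 groups, with the group mean and SD (black bars, n = 3). In each panel the 6 siRNA arrays lie below the 9 other arrays.

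Eif4ebp1 encodes 4E-BP1, which holds the cap-binding factor eIF4E and blocks translation until mTORC1 phosphorylates it. It was 11.11, 11.07 and 10.96 in hypoxia control cells, against 10.59, 10.35 and 10.36 in normoxic cells, and rose 1.53-fold (log2 0.61 ± 0.07, adjusted p = 5.8e-06). It rose further with each siRNA, to 11.61, 11.62 and 11.59 in Si1 cells and 11.39, 11.36 and 11.31 in Si6 cells, against 10.97, 11.06 and 11.07 in negative control cells. None of these groups overlap. The differences from the negative control were 0.58 ± 0.07 in Si1 cells (adjusted p = 3.3e-06) and 0.32 ± 0.07 in Si6 cells (adjusted p = 0.0012). The order of levels was thus Si1, Si6, then the negative and hypoxia controls, which overlapped, then normoxia. The paralogue Eif4ebp2 fell slightly in hypoxia (-0.20 ± 0.05, adjusted p = 0.018) and rose in Si1 cells (0.61 ± 0.05, adjusted p = 3.1e-07) and Si6 cells (0.22 ± 0.05, adjusted p = 0.0058). Eif4e, the target of both inhibitors, differed by 0.04 ± 0.07 in hypoxia (adjusted p = 0.76) and rose by 0.54 ± 0.07 in Si1 cells and 0.47 ± 0.07 in Si6 cells (adjusted p = 1.6e-05 and 9.5e-05).

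With the siRNAs, Sesn2 rose while Sesn1 and Sesn3 fell. SESN1 and SESN2 bind GATOR2 and release it when leucine is present, as known from human cells. Sesn2 was 8.29, 8.13 and 8.18 in hypoxia control cells, against 7.93, 7.92 and 8.01 in normoxic cells. The rise of 0.25 ± 0.06 (adjusted p = 0.009) was lost without hypoxia control array a (adjusted p = 0.054). In Si1 cells Sesn2 was 9.24, 9.33 and 9.47, and in Si6 cells 9.05, 9.08 and 9.12, against 8.79, 8.82 and 8.76 in negative control cells. All 5 groups were separate, in the order Si1, Si6, negative control, hypoxia control, normoxia. Sesn2 rose by 0.55 ± 0.06 in Si1 cells (1.47-fold, adjusted p = 2.7e-06) and by 0.29 ± 0.06 in Si6 cells (1.22-fold, adjusted p = 0.0019). The negative control itself exceeded the hypoxia control by 0.59 ± 0.06 (adjusted p = 7e-06). It was the member with the largest difference between these controls.

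Sesn1 was 9.48, 9.59 and 9.59 in hypoxia control cells, against 9.58, 9.76 and 9.73 in normoxic cells. The ranges overlap, and the difference was -0.14 (interval -0.28 to 0.01, adjusted p = 0.19). It was 8.43, 8.57 and 8.50 in Si1 cells and 9.15, 9.14 and 8.98 in Si6 cells, against 9.37, 9.28 and 9.24 in negative control cells. Sesn1 thus fell to 57.7% of the negative control in Si1 cells (-0.79 ± 0.07, adjusted p = 1.4e-07) and to 86.8% in Si6 cells (-0.20 ± 0.07, adjusted p = 0.032). The Si6 call was lost under 2 of 7 other settings and in 3 fits with 1 array left out (negative control a or b, Si6 c), up to an adjusted p of 0.15. Sesn3, the third sestrin, fell with both siRNAs, by 0.77 ± 0.06 in Si1 cells and 0.55 ± 0.06 in Si6 cells (adjusted p = 9e-08 and 5.9e-06), and differed by -0.12 ± 0.06 in hypoxia (adjusted p = 0.24).

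Castor2 encodes a relative of the arginine sensor CASTOR1 that also binds GATOR2, as known from human cells, and it was the member that fell in hypoxia. Its levels were 7.49, 7.31 and 7.56 in hypoxia control cells, against 8.49, 8.77 and 8.77 in normoxic cells. The groups do not overlap, and Castor2 fell to 42.8% of its normoxic level in the hypoxia control (-1.22 ± 0.09, adjusted p = 1.2e-07). With each siRNA it was higher again, at 8.32, 8.41 and 8.44 in Si1 cells and 8.23, 8.21 and 8.08 in Si6 cells, against 7.32, 7.57 and 7.38 in negative control cells. Castor2 rose 1.96-fold in Si1 cells (0.97 ± 0.09, adjusted p = 3.7e-07) and 1.68-fold in Si6 cells (0.75 ± 0.09, adjusted p = 9.3e-06). It nonetheless remained below normoxia, by 0.29 in Si1 cells (adjusted p = 0.018) and 0.50 in Si6 cells (adjusted p = 0.00039). The Si1 call against normoxia was lost without Si1 array a, normoxia array b or normoxia array c, up to an adjusted p of 0.078. Castor1 had a different pattern, with a small rise in hypoxia (0.22 ± 0.08, adjusted p = 0.049) and differences of 0.12 in Si1 cells (adjusted p = 0.28) and 0.21 in Si6 cells (adjusted p = 0.055).

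Rragd encodes RagD, a Rag GTPase that pairs with RagA or RagB and takes part in lysosomal mTORC1 control. It was 8.13, 8.03 and 8.25 in hypoxia control cells, against 8.12, 8.21 and 8.38 in normoxic cells, and these overlap (difference -0.10, interval -0.29 to 0.10, adjusted p = 0.54). The siRNA groups parted. Rragd was 8.89, 9.11 and 9.05 in Si6 cells, against 7.93, 7.81 and 7.60 in negative control cells, while Si1 cells had 7.60, 7.61 and 7.71. Rragd thus rose 2.36-fold in Si6 cells (1.24 ± 0.09, adjusted p = 7.6e-08), whereas Si1 cells overlapped the negative control, with a difference of -0.14 (interval -0.34 to 0.05, adjusted p = 0.27). Against the negative control Mitf, known to act on Rragd, differed by -0.03 ± 0.05 in Si6 cells (adjusted p = 0.77). It fell by 0.93 ± 0.05 in Si1 cells (adjusted p = 2.2e-09). Mitf was already lower in the negative control than in the hypoxia control, by 0.39 ± 0.05, and than in normoxia, by 0.42 ± 0.05 (adjusted p = 0.0001 and 1.5e-05). The Rragd paralogue Rragc also encodes a partner of RagA and RagB. Rragc rose with both siRNAs, by 0.42 ± 0.06 in Si1 cells and 0.53 ± 0.06 in Si6 cells (adjusted p = 4e-05 and 5.9e-06).

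**Figure D3:**
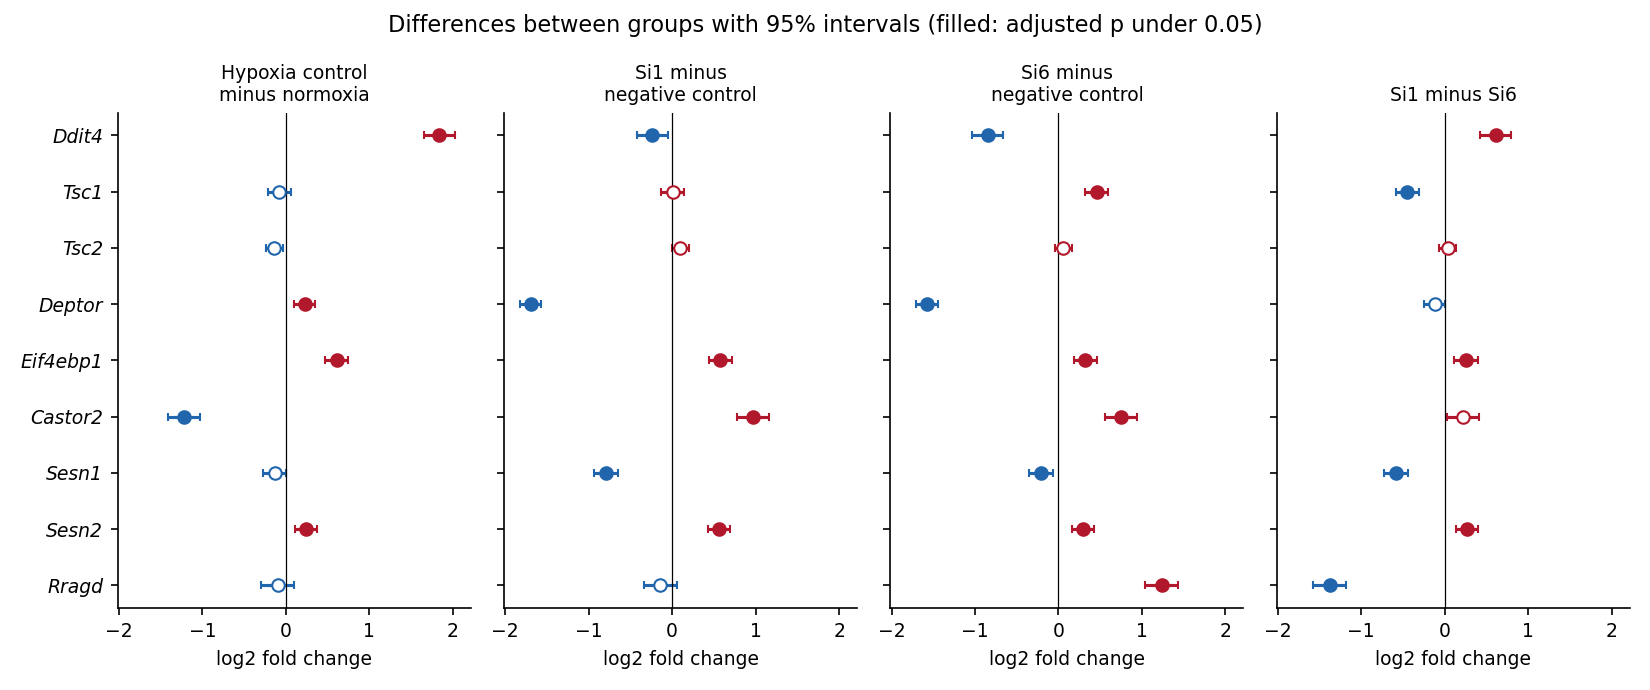
Log2 difference of each gene (points, with 95% intervals) for hypoxia control minus normoxia, Si1 minus negative control, Si6 minus negative control and Si1 minus Si6, with filled points where the adjusted p is under 0.05, red above 0 and blue below. Deptor is at -1.70 and -1.57 for the siRNAs, Ddit4 is at 1.84 in hypoxia, and Rragd is at -1.38 between Si1 and Si6.

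Against the negative control, Si1 changed 6 of the 9 genes, 3 higher and 3 lower, where 34.9% of all genes passed, 20.2% higher and 14.8% lower. Si6 changed 8 of the 9, 5 higher and 3 lower, where 28.9% passed, 17.0% higher and 11.9% lower. These comparisons share the negative control arrays. Deptor, Sesn1 and Ddit4 were lower and Castor2, Sesn2 and Eif4ebp1 were higher with each siRNA. The Si6 count adds the rises of Rragd and Tsc1.

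The siRNAs were also compared with each other. There 6 of the 9 genes passed, 3 higher and 3 lower in Si1 cells, where 27.9% of all genes passed, 14.5% higher and 13.4% lower. Rragd was lower in Si1 cells by 1.38 ± 0.09 (38.5% of the Si6 level, adjusted p = 2.2e-08) and Sesn1 by 0.59 ± 0.07 (adjusted p = 5.9e-06). Tsc1 was lower by 0.45 ± 0.06 (adjusted p = 5.2e-05). Ddit4 was higher in Si1 cells by 0.61 ± 0.09 (adjusted p = 5.3e-05), Sesn2 by 0.27 ± 0.06 (adjusted p = 0.0038) and Eif4ebp1 by 0.25 ± 0.07 (adjusted p = 0.0077). Deptor differed by -0.12 (interval -0.25 to 0.01, adjusted p = 0.17), Castor2 by 0.22 (0.03 to 0.41, adjusted p = 0.09) and Tsc2 by 0.04 (-0.07 to 0.14, adjusted p = 0.68). Hif1a itself was lower in Si1 than in Si6 cells by 0.28 ± 0.06 (adjusted p = 0.0012), and Mitf by 0.90 ± 0.05 (adjusted p = 6.9e-09). The part of either in these differences was not tested.

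Between the controls in hypoxia, 4 of the 9 genes passed, 1 higher and 3 lower in the negative control, where 15.3% of all genes passed, 7.80% higher and 7.51% lower. Sesn2 was higher by 0.59, and Rragd (-0.35 ± 0.09, adjusted p = 0.015), Sesn1 (-0.26 ± 0.07, adjusted p = 0.014) and Ddit4 (-0.27 ± 0.09, adjusted p = 0.047) were lower. Only the Sesn2 call was kept without each of the 15 arrays in turn and under each of 7 other settings. Against normoxia, the negative control changed 8 of the 9 genes, 3 higher and 5 lower, where 30.3% of all genes passed, 14.6% higher and 15.7% lower. Ddit4 rose by 1.57 ± 0.09 and Castor2 fell by 1.25 ± 0.09 there (adjusted p = 2e-09 and 3e-08). The 4 genes that did not pass between the hypoxia control and normoxia all fell here: Rragd by 0.45 ± 0.09, Sesn1 by 0.40 ± 0.07, Tsc1 by 0.26 ± 0.06 and Tsc2 by 0.25 ± 0.05 (adjusted p = 0.0012, 0.00026, 0.0057 and 0.00072). Among the called genes 48.0% were higher in the negative control than in normoxia, and 37.0% after centring each array on its median.

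Both siRNA groups were also set against normoxia. This contrast holds the change of oxygen and CO2, the siRNA, and whatever separates the negative control from the hypoxia control, which cannot be told apart in it. All 9 genes passed in Si1 cells, 3 higher and 6 lower, where 39.1% of all genes passed, 21.7% higher and 17.4% lower. All 9 passed in Si6 cells as well, 5 higher and 4 lower, where 30.2% passed, 17.0% higher and 13.1% lower. Sesn2 was higher by 1.39 ± 0.06 in Si1 cells and 1.13 ± 0.06 in Si6 cells, Eif4ebp1 by 1.17 ± 0.07 and 0.92 ± 0.07, and Sesn1 was lower by 1.19 ± 0.07 and 0.60 ± 0.07 (adjusted p at most 4.3e-06). Rragd and Tsc1 took opposite directions: Rragd was lower by 0.60 ± 0.09 in Si1 cells and higher by 0.78 ± 0.09 in Si6 cells (adjusted p = 6.3e-05 and 6.8e-06), and Tsc1 was lower by 0.25 ± 0.06 in Si1 cells and higher by 0.20 ± 0.06 in Si6 cells (adjusted p = 0.0051 and 0.025).

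Other mTORC1 pathway genes were taken from a list chosen with earlier results of these data known. Of 56 listed genes, transcription factors apart, 50 were measured. In hypoxia 3 rose and 16 fell, with a median change of -0.06, against -0.0016 over all genes. With Si1, 23 rose and 9 fell against the negative control, with a median of 0.17, and with Si6, 16 rose and 6 fell, with a median of 0.13, against -0.012 and -0.013 over all genes. Between the negative control and the hypoxia control, 4 of the same 50 genes were higher and 6 lower. Over all genes 7.80% were higher and 7.51% lower there. The median of the 50 was -0.08, against -0.0077 over all genes. Set against normoxia instead, 14 were higher and 13 lower in Si1 cells, where 21.7% of all genes were higher and 17.4% lower. In Si6 cells 14 were higher and 17 lower, where 17.0% of all genes were higher and 13.1% lower. The medians were -0.0044 and -0.0070, against -0.015 and -0.016 over all genes. For comparison, 9.87% of all genes rose and 11.2% fell in hypoxia. Against the negative control, 20.2% rose and 14.8% fell with Si1, and 17.0% rose and 11.9% fell with Si6. The 4 largest hypoxia changes were a rise of Prkab2 and falls of Tbc1d7, Nprl3 and Prkag2, of which Prkab2 and Prkag2 encode subunits of the energy sensor AMPK and Nprl3 a subunit of GATOR1. Prkab2 rose by 0.79 ± 0.06 (adjusted p = 2.8e-07), Nprl3 fell by 0.59 ± 0.07 (adjusted p = 2.2e-05) and Prkag2 fell by 0.51 ± 0.09 (adjusted p = 0.00052). Between the negative control and normoxia, Prkab2, Tbc1d7 and Nprl3 passed in the same directions, while Prkag2 did not pass (-0.17 ± 0.09, adjusted p = 0.19). Prkag2 was higher in the negative control than in the hypoxia control by 0.34 ± 0.09 (adjusted p = 0.014).

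Of the 8 listed subunits of the mTOR complexes, 4 fell in hypoxia, 5 rose with Si1 and 4 rose with Si6. None passed in the other direction in these comparisons. Over all genes 11.2% fell and 9.87% rose in hypoxia. With Si1 20.2% of all genes rose and 14.8% fell, and with Si6 17.0% rose and 11.9% fell. In the negative control 4 of the 8 were lower than in the hypoxia control and none higher, where 7.51% of all genes were lower and 7.80% higher. Mtor was lower there by 0.19 ± 0.05 and Mlst8 by 0.24 ± 0.06 (adjusted p = 0.029 and 0.016). Mtor, the kinase, fell by 0.32 ± 0.05 in hypoxia and rose by 0.31 ± 0.05 in Si1 cells and 0.35 ± 0.05 in Si6 cells against the negative control (adjusted p = 0.00047, 0.00028 and 0.00013). Mlst8, a shared subunit, fell by 0.38 ± 0.06 in hypoxia and rose by 0.49 ± 0.06 and 0.71 ± 0.06 in Si1 and Si6 cells (adjusted p = 0.00044, 1.4e-05 and 5.6e-07). Mtor averaged 9.63 in Si1 cells and 9.67 in Si6 cells, against 9.32 in the negative control and 9.51 in the hypoxia control, so the siRNA groups lay closer to the hypoxia control than to the negative control. Of the 4 largest Si1 changes, Prr5, an mTORC2 subunit, rose by 1.13 ± 0.09 (adjusted p = 8e-08), and Sesn3, Bmt2 and Mios fell. Bmt2 (SAMTOR), a sensor of methyl-donor supply, fell by 0.70 ± 0.05 (adjusted p = 2.5e-08) and Mios, a GATOR2 subunit, by 0.66 ± 0.05 (adjusted p = 7.5e-08). The 4 largest Si6 changes were rises of Tbc1d7, Mlst8 and Nprl3 and a fall of Prkab2 by 0.85 ± 0.06 (adjusted p = 7.7e-08).

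**Figure D4:**
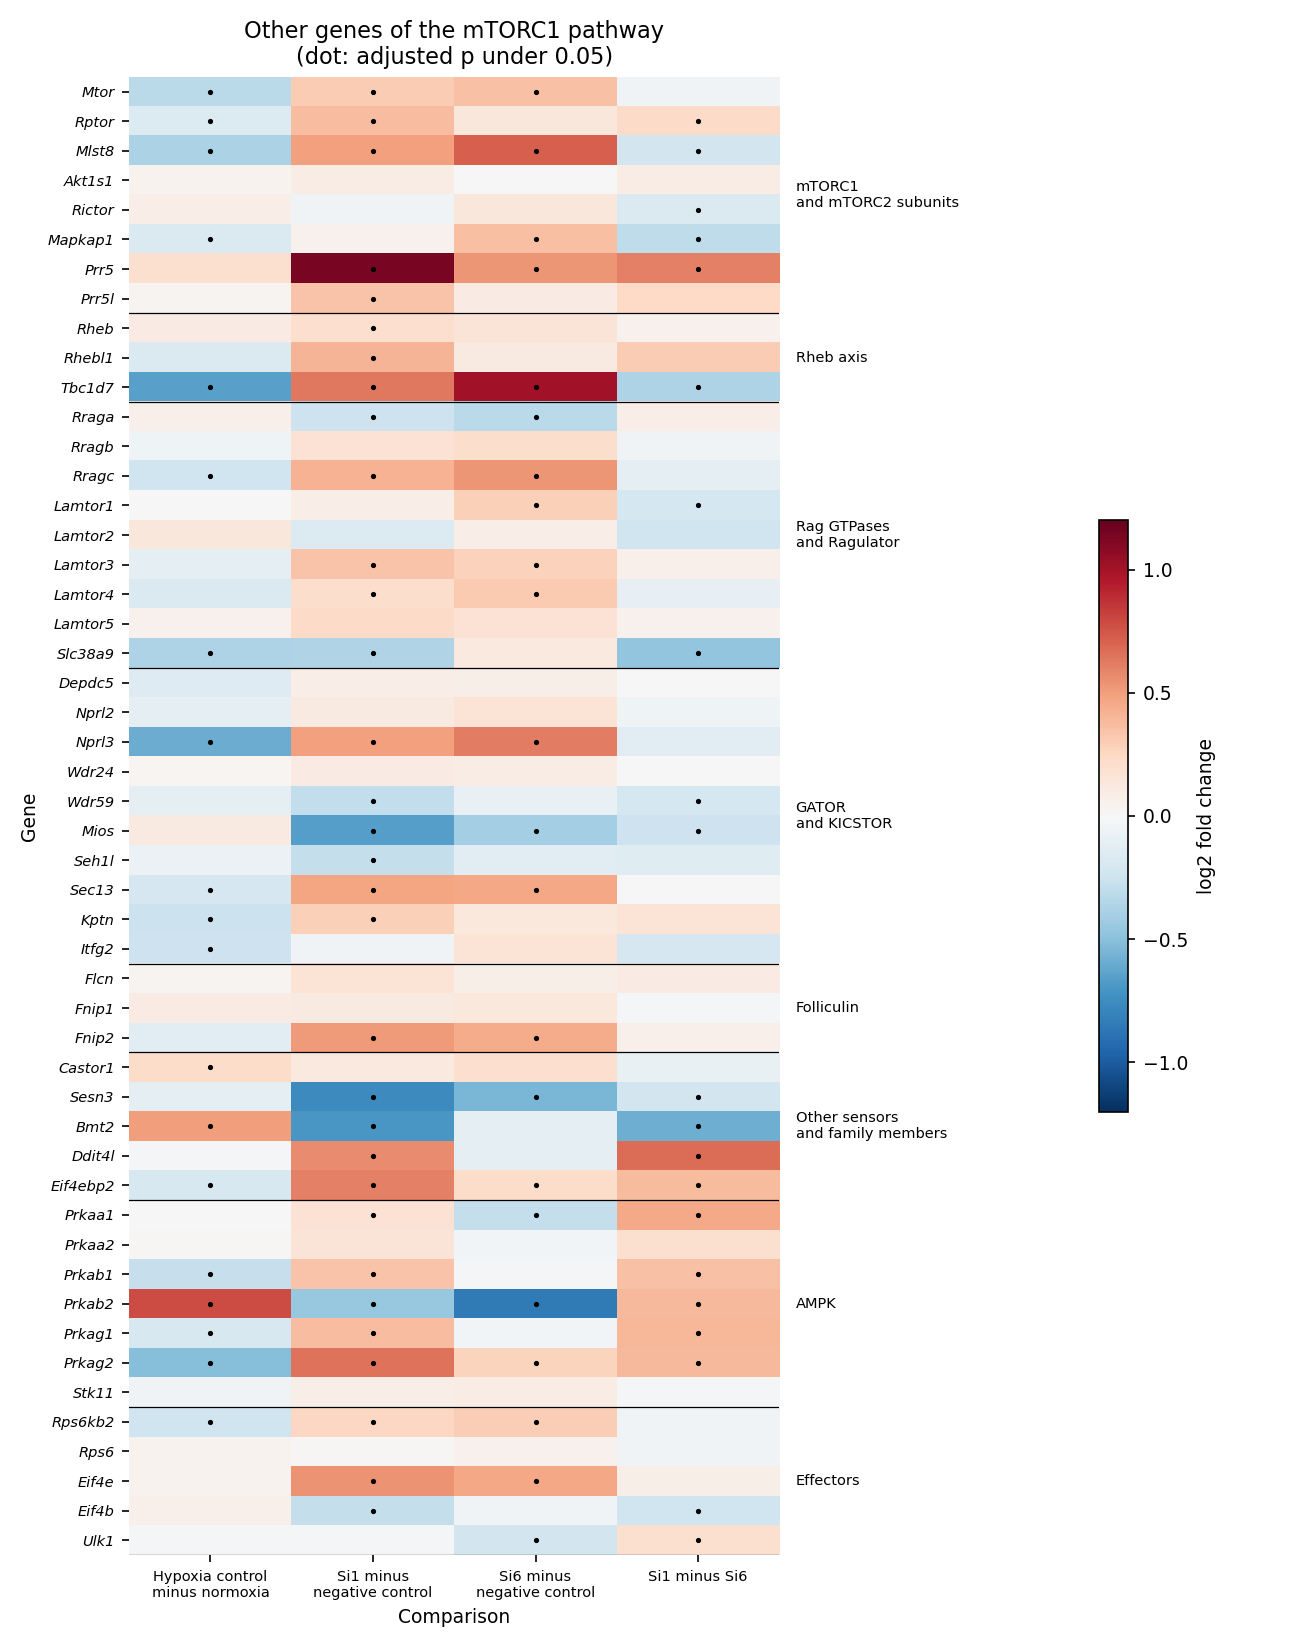
Log2 difference (colour) of the 50 other mTORC1 pathway genes, by role, in hypoxia control minus normoxia, Si1 minus negative control, Si6 minus negative control and Si1 minus Si6, with a dot where the adjusted p is under 0.05. Blue prevails in the hypoxia column (16 falls and 3 rises) and red in the siRNA columns (23 rises and 9 falls with Si1, 16 rises and 6 falls with Si6).

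Of the transcription factors listed as known to act on 1 or more of the 9 genes, those analysed moved differently from each other. Trp53 is on that list but was not among the genes analysed. Against normoxia, Hif1a rose by 0.25 ± 0.06 in the hypoxia control and by 0.30 ± 0.06 in the negative control (adjusted p = 0.0042 and 0.00069). Atf4 fell by 0.28 ± 0.06 in hypoxia (adjusted p = 0.0039) and rose by 0.70 ± 0.06 in Si1 cells and 0.61 ± 0.06 in Si6 cells (adjusted p = 2.5e-07 and 1.9e-06). Ddit3, which encodes the stress factor CHOP, differed by 0.00 ± 0.07 in hypoxia and rose by 0.83 ± 0.07 in Si1 cells and 0.85 ± 0.07 in Si6 cells (adjusted p = 0.99, 9.5e-08 and 1.6e-07). Epas1, the gene of HIF-2 alpha, fell by 0.76 ± 0.08 in Si1 cells and 0.34 ± 0.08 in Si6 cells (adjusted p = 2.1e-06 and 0.0054). Tfe3 rose by 0.31 ± 0.06 in Si1 cells (adjusted p = 0.00033) and differed by -0.07 ± 0.06 in Si6 cells (adjusted p = 0.38). Tfeb rose by 0.24 ± 0.07 in Si6 cells (adjusted p = 0.024) and differed by 0.12 ± 0.07 in Si1 cells (adjusted p = 0.27). These differences are from the negative control, where Tfeb was lower than in the hypoxia control by 0.30 ± 0.07 (adjusted p = 0.011). Tfeb averaged 7.06 in Si6 cells and 7.13 in hypoxia control cells. These are RNA levels; the proteins, whose stability and position the pathway sets, were not analysed here.

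As a description over the 15 arrays, which share groups and controls, the genes whose patterns were most like those of the others were Aplp1 for Ddit4 (r = 0.989), Hacl1 for Sesn1 (0.987), Mybl1 for Sesn2 (0.991), Uck2 for Eif4ebp1 (0.981), Shkbp1 for Castor2 (0.972), Kpna6 for Rragd (0.974), Carf for Tsc1 (0.960) and Lztr1 for Tsc2 (0.969). Next came Pdlim5 for Ddit4 (0.977), Atp10b for Sesn1 (0.985), Prrg4 for Sesn2 (0.989), Cnih1 for Eif4ebp1 (0.976), Ogdh for Castor2 (0.970), Abca5 for Rragd (0.961), Prpsap2 for Tsc1 (0.948) and Vps33a for Tsc2 (0.967). Abca5 and Prpsap2 were among the 3 genes nearest to both Rragd and Tsc1. Sesn1 and Sesn2 ran against each other over the same arrays, at r = -0.921.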

How the data were processed

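Per the labels' protocols, biotin-labelled RNA of 1 melanocyte line was measured on 15 one-colour Affymetrix arrays. The authors deposited 1 table of log2 values for 41345 probe sets; RMA and Partek are named per the submitters' processing notes, without version or settings. The genome build is not given in the sources used here, and scanner files were not used here. RMA includes quantile normalization, which gives arrays a shared distribution and so hides any global shift, and differences of dim genes are compressed.

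Of the probe sets, 23521 have 1 gene symbol in the platform annotation, 1814 have several and 16010 none; the last 2 kinds were left out. The probe set with the highest mean stood for each of the 1082 genes that have more than 1, Deptor among the members, which left 22180 genes. A linear model with a mean per group and no covariate was fitted to the deposited values of all arrays at once (limma 3.58.1, R 4.3.3, eBayes); tests were two-sided, and p-values were adjusted (Benjamini-Hochberg) over all genes of a comparison at 0.05. The fit was tested on simulated data. The members and gene lists were chosen with earlier results of these data known. Genes named are the members, up to 4 listed pathway genes with the largest change per comparison, the listed transcription factors, and the 3 genes most correlated with each member among the upper 75% by mean level; family members, partners and complex subunits named beside a member (Castor1, Sesn3, Ddit4l, Eif4ebp2, Eif4e, Rragc, Mtor) were chosen after their values were seen. Of the pathway list, 7 genes were not analysed here. Alternatives were median centring, quantile normalization of the gene table, dropping the dimmest 25% of genes, averaging probe sets, trend and robust eBayes, only the compared groups, the replicate letter as a block, and leaving out each array in turn. Promoters and gene identities come from RefSeq tables (GRCm38.p6); 7 of the 9 members have a promoter there. Depth has no meaning for arrays, so precision is set by the number of arrays.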

Additional observations from a re-analysis of the deposited data

Results flagged for a closer look

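For 6 members the difference between the siRNA groups, both against the same negative control, passed the test itself. Over all genes 27.9% passed in this comparison. On the log2 scale, Si1 minus Si6 was 0.61 for Ddit4, -0.59 for Sesn1, 0.27 for Sesn2, 0.25 for Eif4ebp1, -1.38 for Rragd and -0.45 for Tsc1 (limma, adjusted p between 2.2e-08 and 0.0077, n = 3 arrays each). The arrays of the siRNA groups did not overlap for any of these 6, but how often that holds over all genes was not counted. For Ddit4, Sesn1, Sesn2 and Eif4ebp1 both siRNAs moved the gene the same way and differed in size, whereas Rragd and Tsc1 rose in Si6 cells and not in Si1 cells. No group has more than 3 arrays, so single arrays were not screened for outlying values.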

How the results depend on the processing

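Over 72 differences of members, 1584 values were recomputed under 7 other settings and with each of 15 arrays left out; 1513 kept direction and side of the threshold, 52 lost the call, 10 gained it and 9 small uncalled differences changed sign. None of the called differences reversed. Leaving out 1 array gave 3 to 6 members called in hypoxia control against normoxia (main 5; 3 without hypoxia control array a, which ends the Sesn2 and Deptor calls) and 1 to 4 in negative control against hypoxia control (main 4; 2 without negative control array b or hypoxia control array b, 1 without array c of either). In that comparison the Sesn1 call was lost without array b or c of either group, the Rragd call without array c of either, and the Ddit4 call in 10 of 15 such fits (any array of either group, Si1 a, Si6 a, normoxia b or c). Of the 57 measured genes of the whole pathway list, 12 passed there, against 19 with trend and robust eBayes and 7 to 13 with 1 array left out (7 without negative control array a). Over all genes 3396 (15.3%) passed there, against 2941 to 3878 under the 7 other settings and 2518 to 3467 with 1 array left out. In hypoxia control against normoxia 4664 of all genes passed, against 3807 to 4788 with 1 array left out. The cause of these shifts was not tested. The Tsc1 rise of Si6 over normoxia was lost under 3 settings and without Si6 a or b or normoxia a or b (adjusted p up to 0.12), and the Tsc2 fall of Si1 below normoxia under 1 setting and without Si1 a or normoxia c (adjusted p up to 0.088). Calls gained were Tsc2 (hypoxia), Tsc1 (negative against hypoxia control), Deptor (negative control against normoxia, by the mean of its probe sets), Castor2 and Deptor (Si1 against Si6).

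No sign that the replicate letters pair the arrays was seen, though this cannot exclude it. Over 30 same-letter pairs of deviations from group means, the correlation ran from -0.22 to 0.21, and 3 were over 0.1. In 8 of 30 cases an array correlated best with its own letter, out of the 3 letters of another group. With the letter as a replicate block, 5 members passed in hypoxia control against normoxia, 3 in negative control against hypoxia control, 5 with Si1 and 8 with Si6 against the negative control, and 6 between the siRNAs. Over all 22180 genes that fit called 4460, 3137, 7569, 6216 and 5979, in the same order. Without the block it was 4664, 3396, 7750, 6400 and 6198. With 3 arrays a group, differences near 0.2 lie at the limit of what passed.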

Other observations

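Of 7 listed genes of AMPK, the energy sensor that activates TSC2 and restrains mTORC1 (6 of its subunits, and Stk11, which encodes its upstream kinase LKB1), 5 subunits differed between the siRNAs, all 5 higher in Si1 than in Si6 cells (limma, adjusted p under 0.05), where 14.5% of all genes were higher. Prkaa1, a catalytic subunit, was higher in Si1 cells by 0.46 ± 0.05 (adjusted p = 4.2e-06), Prkag1 by 0.40 ± 0.06 (adjusted p = 7.9e-05) and Prkab2 by 0.39 ± 0.06 (adjusted p = 0.00019). Prkab2 averaged 8.47 ± 0.06 in Si1 cells, against 8.93 ± 0.13 in negative control cells, and 8.98 ± 0.05 in hypoxia control cells, against 8.20 ± 0.06 in normoxic cells (log2 level, SD, n = 3 each). Against the negative control, the folliculin partner Fnip2 rose with each siRNA, by 0.51 ± 0.06 in Si1 cells and 0.45 ± 0.06 in Si6 cells (adjusted p = 2e-06 and 1.3e-05), while Flcn differed by 0.17 ± 0.07 and 0.07 ± 0.07 (adjusted p = 0.084 and 0.54). Fnip2 was lower in the negative control than in the hypoxia control by 0.33 ± 0.06 (adjusted p = 0.00064), and averaged 9.90 ± 0.01 in Si1 cells and 9.84 ± 0.06 in Si6 cells, against 9.72 ± 0.02 in hypoxia control cells, a smaller difference. Slc38a9, a lysosomal arginine sensor, fell in hypoxia by 0.37 ± 0.09 (adjusted p = 0.0075) and in Si1 cells by 0.36 ± 0.09 (adjusted p = 0.0046), and differed by 0.12 ± 0.09 in Si6 cells (adjusted p = 0.39). These genes were chosen after their values were seen.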
